A study of Rattus norvegicus with 8 samples.

Results

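The genes described here encode enzymes that make, extend, desaturate and activate fatty acids or supply NADPH, the transcription factor SREBP-1, and Thrsp. Their RNA was measured in 8 samples of FRTL-5, a thyroid line of the rat. The genes are treated as 1 part of the series. They were chosen by symbol, as every probe set on the array annotated to Thrsp, Scd, Elovl6, Fasn, Acaca, Acly, Srebf1, Acsl1, Acsl3 or Me1. The choice of genes was made with earlier results of these data known. This gave 19 of 31099 probe sets, for 10 of 14218 named genes. A probe set is a group of short probes read together as 1 signal for 1 transcript region. Of the 19, 18 were bright enough to be tested, and these were among 18625 tested probe sets. The probe set left out, 1382887_at of Acsl1, had signals of 10.9 and 6.7 in L629F cells with iodide and of 66.3 and 7.3 in L629F cells with chloride. In wild type cells it had 33.2 and 39.7 with iodide and 4.6 and 9.2 with chloride.

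FRTL-5 cells are rat thyroid follicular cells whose growth depends on thyrotropin (TSH), and the sub-clone SB5 was used. All samples, controls included, were grown with 5 mU/ml bovine TSH and stably expressed a human TSH receptor, which was either L629F, an activating mutant, or wild type. Each line received 1 mM sodium iodide, with 1 mM sodium chloride as its isotonic counterpart. The 4 groups of 2 arrays were thus L629F with iodide, L629F with chloride, wild type with iodide and wild type with chloride. The series asked how iodide changes expression in a cell model of thyroid autonomy. There was 1 line per receptor, so receptor and line cannot be told apart, and the cells also carry their own rat receptor. The labels give neither the duration of treatment nor whether replicates were grown separately. The p-values therefore rest on a spread between arrays that may be technical.

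Fatty acid synthesis starts when ATP citrate lyase turns citrate into cytosolic acetyl-CoA. Acetyl-CoA carboxylase and fatty acid synthase build palmitate from it with NADPH, an elongase and a desaturase extend and desaturate the chain, and acyl-CoA synthetases activate the product for use. The transcription factor SREBP-1, made by Srebf1, drives most of these genes, and Thrsp (Spot 14) is a small protein, induced by thyroid hormone in liver, that promotes lipogenesis. The pathway is best known from liver and fat.

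The upstream sequences of some of the genes that moved together, and of Me1, which did not pass the test, are shown for orientation. RefSeq windows on GRCr8, from 250 bases before to 50 after an annotated start, were found for 7 of the 10 genes; Elovl6, Fasn and Acaca had no entry. Srebf1 had 2 annotated starts. Each sequence runs 5′ to 3′ on the gene's strand, and capitals mark the letters CCAAT (the box bound by NF-Y) or GGGCGG (the GC box bound by Sp1) on either strand. The windows are Thrsp at chr1:161138915-161139214, Scd at chr1:253231682-253231981, Srebf1 at chr10:45529115-45529414 (upstream start) and chr10:45518961-45519260 (downstream start), Acly at chr10:85963582-85963881 and Me1 at chr8:96540195-96540494, all on the minus strand.
Thrsp: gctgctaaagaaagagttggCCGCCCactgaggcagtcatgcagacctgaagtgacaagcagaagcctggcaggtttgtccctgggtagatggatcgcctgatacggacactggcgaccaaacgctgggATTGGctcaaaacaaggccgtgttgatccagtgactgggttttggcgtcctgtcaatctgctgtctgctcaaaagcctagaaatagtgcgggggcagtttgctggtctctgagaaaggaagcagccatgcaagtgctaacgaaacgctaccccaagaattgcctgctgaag
Scd: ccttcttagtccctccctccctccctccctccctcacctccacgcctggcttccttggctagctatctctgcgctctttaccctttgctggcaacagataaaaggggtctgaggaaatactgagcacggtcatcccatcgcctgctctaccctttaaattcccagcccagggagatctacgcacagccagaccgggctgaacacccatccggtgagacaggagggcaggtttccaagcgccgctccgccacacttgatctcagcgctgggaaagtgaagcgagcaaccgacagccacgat
Srebf1 upstream start: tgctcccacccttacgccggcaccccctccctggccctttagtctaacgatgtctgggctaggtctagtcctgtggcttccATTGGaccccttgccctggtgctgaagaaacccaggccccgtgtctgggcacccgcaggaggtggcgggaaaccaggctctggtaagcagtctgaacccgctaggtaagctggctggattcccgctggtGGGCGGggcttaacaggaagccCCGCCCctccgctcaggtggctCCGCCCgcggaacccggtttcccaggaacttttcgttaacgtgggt
Srebf1 downstream start: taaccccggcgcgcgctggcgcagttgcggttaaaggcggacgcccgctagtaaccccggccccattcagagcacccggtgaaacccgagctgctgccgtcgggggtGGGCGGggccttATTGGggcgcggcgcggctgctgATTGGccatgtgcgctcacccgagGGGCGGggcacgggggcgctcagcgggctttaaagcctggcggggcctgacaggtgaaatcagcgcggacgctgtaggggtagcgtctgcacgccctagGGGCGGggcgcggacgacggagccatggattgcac
Acly: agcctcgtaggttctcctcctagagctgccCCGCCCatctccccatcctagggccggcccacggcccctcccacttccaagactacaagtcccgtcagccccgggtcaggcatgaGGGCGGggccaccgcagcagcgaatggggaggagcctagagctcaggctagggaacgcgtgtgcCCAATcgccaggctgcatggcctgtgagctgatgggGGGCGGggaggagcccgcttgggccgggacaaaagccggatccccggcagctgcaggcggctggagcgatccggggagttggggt
Me1: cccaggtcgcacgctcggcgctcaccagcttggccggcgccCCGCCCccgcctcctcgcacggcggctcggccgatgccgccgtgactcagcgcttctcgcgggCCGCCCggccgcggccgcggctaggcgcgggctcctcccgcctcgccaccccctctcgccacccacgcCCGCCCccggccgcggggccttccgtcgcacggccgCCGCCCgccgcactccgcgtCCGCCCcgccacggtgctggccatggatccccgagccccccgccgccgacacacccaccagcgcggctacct

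The CCAAT letters were in 6 of the 8 windows (5 of 7 genes), against 37.5% of all 33469 windows in the table. In Thrsp they lay on the opposite strand, with the match from 121 to 117 bases before the start, and the downstream Srebf1 window held 2 matches. Scd and Me1 had none. The GC box letters were in 6 of the 8 windows (5 of 7 genes), against 33.1% of all windows, and Me1 had 5 matches. Scd and Acsl1, the latter also not shown, had no GC box match. In Acsl3, whose window is not shown, a CCAAT match and a GC box match lay directly side by side, and no 2 of the listed matches shared a base. The E-box CACGTG (6.42% of all windows) and the core TCACNCCAC of the sterol regulatory element (1.12%) were in 0 of the 8 windows. These matches describe letters in short windows only.

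The cells had the markers of their label. Of 11 thyroid follicular markers on the array, 9 were above the limit for dim probe sets, with Tg, thyroglobulin, between 10747.5 and 16582, while Iyd and Slc26a4 were below it. Adipocyte markers matter here, since Thrsp and lipogenic enzymes are abundant in fat. Of 11, 9 were below the limit, among them Adipoq, Fabp4, Lpl and Pparg, and Cfd and Plin4 were above it. Their summed signal ran from 718 to 896 in L629F cells with iodide, 785 to 978 in L629F cells with chloride, 551 to 647 in wild type cells with iodide and 565 to 729 in wild type cells with chloride. Of the markers of leucocytes, fibroblasts, endothelium and C cells, 4 of 10, 2 of 8, 1 of 7 and 2 of 6 were above the limit. The summed C cell signal was 574 to 640 and 576 to 653 in L629F cells with iodide and with chloride, against 493 to 525 and 390 to 393 in wild type cells with iodide and with chloride. The corresponding leucocyte sums lay between 825 and 947 in all groups, the fibroblast sums between 341 and 590 and the endothelial sums between 321 and 549. The part of other cells in the results below was not tested. Across tested probe sets, the correlation within a group was 0.963 to 0.976, and the least similar pair of arrays had 0.948. The ratio of the GAPDH 3′ to 5′ probe sets, which is higher in degraded RNA, was 2.27 and 2.49 in L629F cells with iodide, against 1.54 and 2.17 with chloride, so both iodide arrays were higher. In the wild type line this GAPDH ratio was 1.40 and 3.13 with iodide, against 1.22 and 1.55 with chloride, which overlapped. The same ratio for beta-actin was 5.95 and 6.48 in L629F cells with iodide, against 5.93 and 7.90 with chloride, and 3.66 and 9.15 in wild type cells with iodide, against 2.23 and 5.05 with chloride. The part of RNA quality in the results was not tested beyond the fits with the GAPDH ratio as a covariate and without its 2 highest arrays.

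Averaged over both lines, 12 of the 18 probe sets, from 9 of the 10 genes, were lower in cells given iodide than in cells given chloride, and 0 were higher. Of all 18625 tested probe sets, 0.644% were called lower and 0.204% higher, 0.848% in all. The call was an adjusted p under 0.05 in limma's moderated test, two-sided and with Benjamini-Hochberg adjustment over all tested probe sets. The median log2 difference of the 18 was -0.63, against -0.003 for all tested probe sets, and all 18 were negative. Both iodide arrays lay below both chloride arrays in each line for 15 of the 18 probe sets, against 5.78% of all tested. The 10 genes were chosen with earlier results of these data known, so these shares are a description and no independent test. In bulk RNA, fewer cells expressing a gene and less RNA per cell cannot be told apart.

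**Figure D1:**
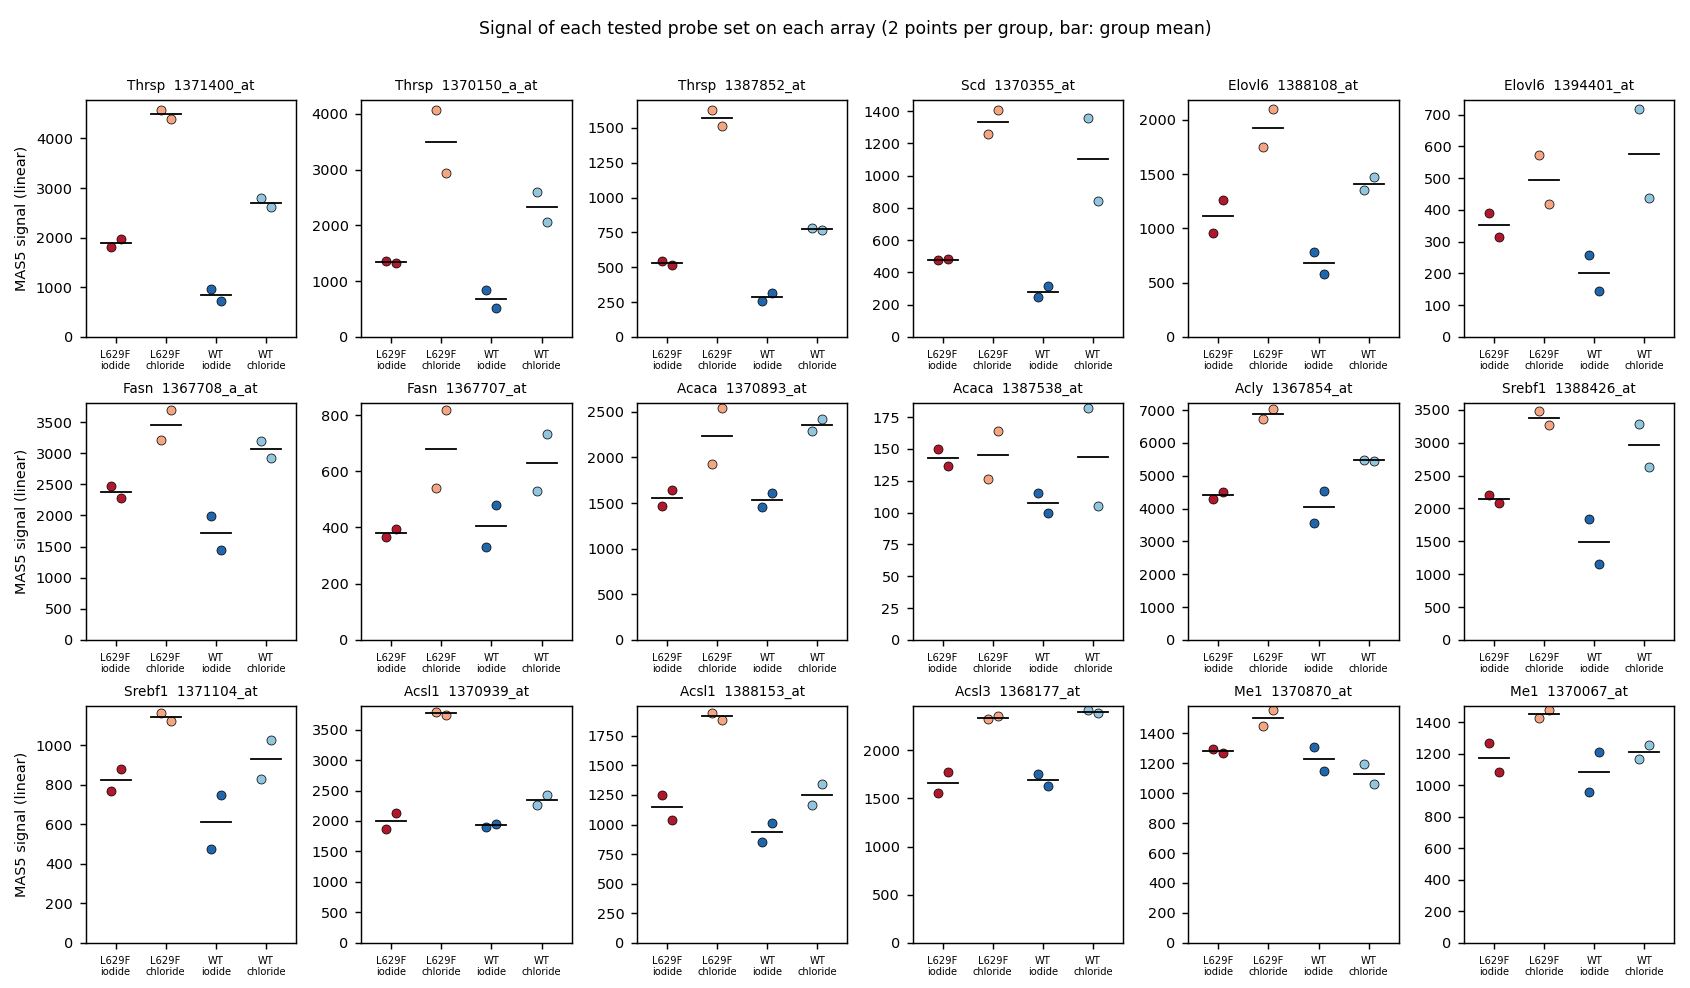
MAS5 signal (linear axis from 0) of the 18 tested probe sets on each of the 8 arrays, with 2 points per group and a bar at the group mean. In both lines the iodide points of Thrsp, Scd and the brighter probe set of Elovl6 lie below the chloride points, while the wild type points of Me1 overlap between the salts.

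Thrsp was the gene with the firmest fall. On its brightest probe set, 1371400_at, signals were 1804 and 1980 in L629F cells with iodide, against 4578 and 4400.2 with chloride. In wild type cells they were 960 and 731 with iodide, against 2793 and 2615 with chloride. The 4 groups did not overlap. Iodide cells thus held 42.1% of the chloride mean in the L629F line and 31.3% in the wild type line. The mean log2 difference was -1.44 ± 0.11 (SE, adjusted p = 0.000181), the smallest p of all tested probe sets. Another probe set, 1370150_a_at, changed by -1.55 ± 0.16 (adjusted p = 0.000752) and the last one, 1387852_at, by -1.42 ± 0.13 (adjusted p = 0.000504). In each of the 3 probe sets the groups had the same order without overlap, with L629F chloride highest, then wild type chloride, L629F iodide and wild type iodide.

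Srebf1 gave a fall on 1 of 2 probe sets. The brighter, 1388426_at, had signals of 2204 and 2081 in L629F cells with iodide and of 3483 and 3272 with chloride. In wild type cells it had 1836 and 1154 with iodide and 3282 and 2631 with chloride, with iodide below chloride in each line. Its mean log2 difference was -0.82 ± 0.14 (SE, adjusted p = 0.0169). The other probe set, 1371104_at, was also lower on every iodide array of each line, with -0.53 ± 0.15 (adjusted p = 0.136), and did not pass. The files do not say which of the annotated starts either probe set reads.

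Of the enzymes that supply carbon and reducing power, Acly fell and Me1 did not pass the test. Acly, which makes cytosolic acetyl-CoA, had 4303 and 4506 in L629F cells with iodide, against 6716 and 7037 with chloride. Wild type arrays read 3563 and 4546 with iodide, against 5475 and 5466 with chloride. It fell by 0.54 ± 0.10 on the log2 scale (SE, adjusted p = 0.0252), with no overlap in either line. Me1, the cytosolic malic enzyme that makes NADPH, gave -0.23 ± 0.12 (adjusted p = 0.484) on 1370067_at and -0.05 ± 0.11 (adjusted p = 0.904) on 1370870_at. On 1370870_at the wild type arrays read 1311 and 1150 with iodide and 1195 and 1061 with chloride, so the groups overlapped. In L629F cells the iodide arrays, at 1296.5 and 1268, lay below the chloride arrays, at 1447 and 1556. Me1 was the single gene of the 10 with no probe set past the threshold.

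The carboxylase and the synthase gave falls on their brighter probe sets. Acaca, acetyl-CoA carboxylase, had 1470.4 and 1646 in L629F cells with iodide and 1931 and 2539 with chloride on 1370893_at. The wild type signals were 1451 and 1614 with iodide and 2293.5 and 2418 with chloride, and the difference was -0.56 ± 0.12 (SE, adjusted p = 0.0458). Its dim probe set 1387538_at, with signals of 99.9 to 182, gave -0.15 ± 0.23 (adjusted p = 0.853) and overlapped in both lines. Fasn, fatty acid synthase, had 2470.2 and 2274 in L629F cells with iodide and 3208 and 3690.1 with chloride on 1367708_a_at. In the wild type line it had 1993 and 1450.4 with iodide and 3202 and 2925 with chloride. This was a difference of -0.68 ± 0.12 (adjusted p = 0.0183). The dimmer Fasn probe set, 1367707_at, gave the same size with a wider error, -0.68 ± 0.18 (adjusted p = 0.105).

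Desaturation and chain elongation showed wide falls. Scd, stearoyl-CoA desaturase, which puts the double bond into monounsaturated fatty acids, had 477 and 481 in L629F cells with iodide and 1260.1 and 1409 with chloride. The wild type line had 245 and 317 with iodide and 1356 and 846 with chloride, so that iodide cells held 35.9% of the chloride mean in L629F and 25.5% in wild type cells. Its difference of -1.62 ± 0.16 (SE, adjusted p = 0.000752) was the largest in size of the 18. Elovl6, which elongates palmitate, had 961.5 and 1258 in L629F cells with iodide and 1752.5 and 2105 with chloride on 1388108_at. The wild type signals were 784 and 579 with iodide and 1353 and 1471 with chloride, and the difference was -0.91 ± 0.14 (adjusted p = 0.00898). Its dimmer probe set 1394401_at gave -0.91 ± 0.21 (adjusted p = 0.0658).

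The acyl-CoA synthetases also fell. Acsl1, a long-chain acyl-CoA synthetase, had 1867 and 2134 in L629F cells with iodide and 3787 and 3747 with chloride on 1370939_at. Among wild type arrays it had 1908.5 and 1957 with iodide and 2256 and 2425 with chloride. The mean difference was -0.59 ± 0.10 (SE, adjusted p = 0.0163), and the second tested probe set, 1388153_at, gave -0.57 ± 0.12 (adjusted p = 0.0455). Acsl3, a synthetase of the endoplasmic reticulum and lipid droplets, had 1552 and 1773 in L629F cells with iodide and 2326 and 2356 with chloride. The wild type signals were 1755 and 1629 with iodide and 2415 and 2383 with chloride. The difference was -0.49 ± 0.10 (adjusted p = 0.0431).

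How firmly these calls held differed by gene. Each of the 3 Thrsp probe sets and Scd passed in all 8 fits that left out 1 array, with adjusted p up to 0.0171. With no intensity trend in the variance, however, Scd (adjusted p = 0.0593) and Thrsp 1370150_a_at (0.0609) no longer passed for the mean of both lines, the other Thrsp probe sets did (0.0465 each), and no call within a line was left. Of the same 8 fits, Elovl6 (1388108_at) passed in 4 (adjusted p up to 0.0692), Fasn (1367708_a_at) in 3 (0.145) and Acsl1 (1370939_at) in 3 (0.0995). Srebf1 (1388426_at, 0.142) and Acly (0.155) passed in 2, Acaca (1370893_at, 0.211) and Acsl3 (0.226) in 1, and Acsl1 1388153_at (0.209) in 0. The number of probe sets called was 4 without wild type chloride replicate 1 or 2, L629F chloride replicate 2 or L629F iodide replicate 1. It was 6 without L629F iodide replicate 2, 7 without L629F chloride replicate 1, 9 without wild type iodide replicate 2 and 11 without wild type iodide replicate 1. Without the 2 arrays of highest GAPDH ratio, wild type iodide replicate 2 and L629F iodide replicate 2, it was 7, with Thrsp 1371400_at at -1.38 (adjusted p = 0.00166) and Scd at -1.70 (adjusted p = 0.00518).

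**Figure D2:**
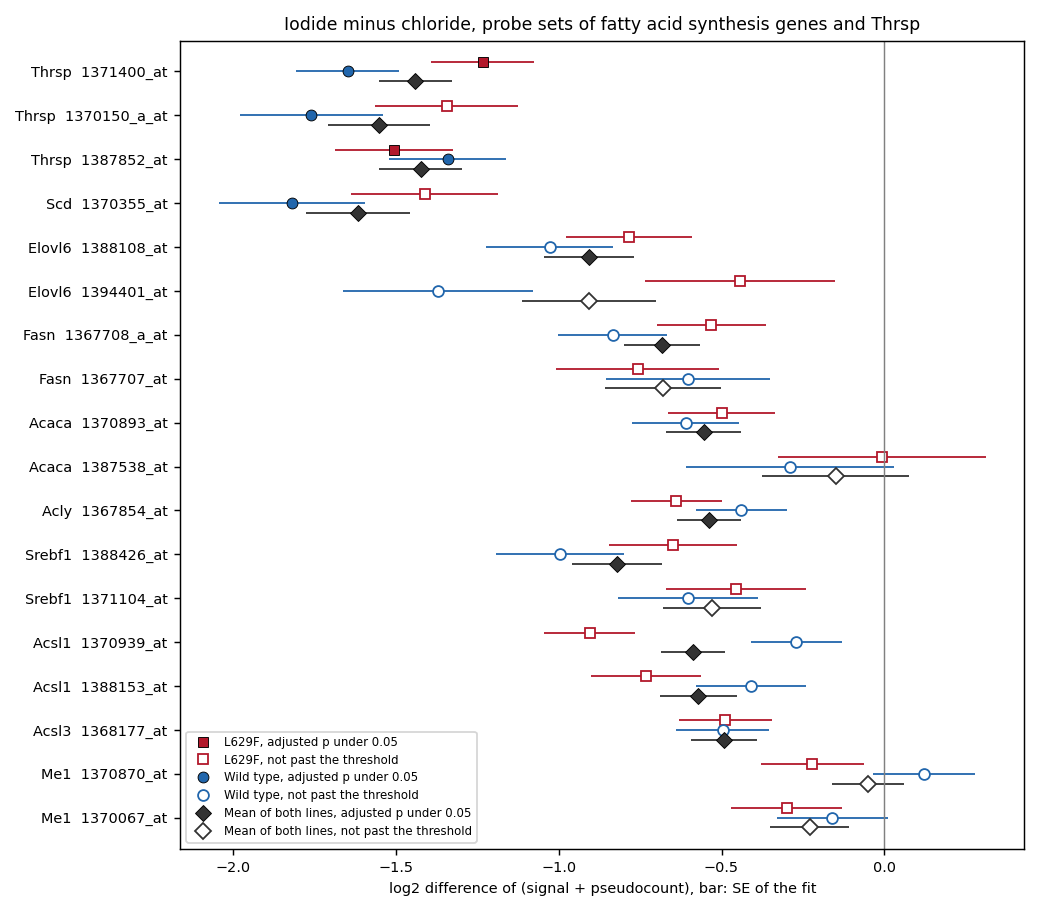
Log2 difference, iodide minus chloride, of the 18 tested probe sets in the L629F line (squares), the wild type line (circles) and their mean (diamonds), with the SE of the fit as bars. Filled symbols have an adjusted p under 0.05; the mean passes for 12 probe sets, and the Thrsp and Scd means lie between -1.62 and -1.42.

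Within the L629F line, 2 of 18 probe sets were called lower with iodide, both of Thrsp, and 0 were called higher; of all tested probe sets, 0.0107% were called lower and 0.00537% higher, 0.0161% in all. At an unadjusted p under 0.05 there were 13 of 18, against 6.97% of all. Thrsp 1387852_at changed by -1.51 ± 0.18 (SE, adjusted p = 0.0138) and 1371400_at by -1.23 ± 0.16 (adjusted p = 0.0193). The largest other differences, Scd at -1.41 ± 0.23 (adjusted p = 0.08), Thrsp 1370150_a_at at -1.34 ± 0.22 (0.084) and Acsl1 1370939_at at -0.90 ± 0.14 (0.0654), did not pass. All 18 differences were negative (median -0.64), and both iodide arrays lay below both chloride arrays for 17 probe sets, against 18.6% of all tested. The count was 3 without wild type iodide replicate 1 or 2, and 0 without any 1 of the other 6 arrays.

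Within the wild type line, 4 of 18 probe sets were called lower with iodide, those of Thrsp and Scd, and 0 were called higher; of all tested probe sets, 0.188% were called lower and 0.0483% higher, 0.236% in all. At an unadjusted p under 0.05 there were 14 of 18, against 10.4% of all. Scd changed by -1.82 ± 0.23 (SE, adjusted p = 0.00828), and the Thrsp probe sets by -1.34 to -1.76 (adjusted p up to 0.0108). Elovl6 1388108_at (-1.03 ± 0.19, adjusted p = 0.0563), Srebf1 1388426_at (-0.995 ± 0.20, 0.0685) and Fasn 1367708_a_at (-0.83 ± 0.17, 0.0719) did not pass. The median was -0.61, and 17 of 18 differences were negative, Me1 1370870_at being the exception at 0.12 ± 0.16. For 15 probe sets both iodide arrays lay below both chloride arrays, against 19.9% of all tested. The count was 0 without wild type chloride replicate 1, 2 without wild type chloride replicate 2 and 5 without wild type iodide replicate 1.

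The response to iodide did not pass a test of difference between the lines for any probe set. In the interaction term of the limma fit, 0 of 18 were called, as were 0% of all tested, while 2 of 18 had an unadjusted p under 0.05, against 4.01% of all. Those 2 were Acsl1 1370939_at and Elovl6 1394401_at. Acsl1 1370939_at differed by -0.63 ± 0.20 (SE, unadjusted p = 0.00682, adjusted p = 0.998), its response being -0.90 ± 0.14 in L629F and -0.27 ± 0.14 in wild type cells. Its other tested probe set differed by -0.32 ± 0.24. Elovl6 1394401_at differed the other way, by 0.93 ± 0.41 (unadjusted p = 0.0425, adjusted p = 0.998). With 2 arrays per group, the median SE of this difference was 0.25 over the 18 probe sets.

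Between the lines, the Thrsp signals of L629F cells lay above those of wild type cells under each salt, and 1 difference was called. With iodide, 1 of 18 probe sets was called higher, Thrsp 1371400_at, and 0 lower, against 0.156% of all tested called higher and 0.0215% lower. It differed by 1.14 ± 0.16 (SE, adjusted p = 0.0166), with an L629F mean of 1892 ± 124 and a wild type mean of 846 ± 161 (SD, n = 2 arrays each). The other Thrsp probe sets gave 0.99 ± 0.22 (adjusted p = 0.108) and 0.82 ± 0.18 (adjusted p = 0.101). With chloride, 0 of 18 were called by limma, against 0.199% of all tested (0.0591% lower), and 8 of 18 had an unadjusted p under 0.05, against 12.3% of all. The largest of these differences was that of Thrsp 1387852_at, 0.99 ± 0.18 (adjusted p = 0.0518), then Thrsp 1371400_at at 0.72 ± 0.16 (0.101) and Acsl1 1370939_at at 0.68 ± 0.14 (0.0735). For Acsl1 1370939_at the L629F mean was 161% of the wild type mean with chloride and 103% with iodide, where the difference was 0.05 ± 0.14 (adjusted p = 0.934).

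Median signals were higher on the L629F arrays, where they ran from 138 to 147 against 118 to 127 on the wild type arrays. With each array's overall median set equal, the median difference of all tested probe sets moved to -0.17 with iodide and -0.14 with chloride, and Thrsp 1371400_at gave 0.96 with iodide (adjusted p = 0.0546). All 3 Thrsp probe sets stayed positive under both scaling alternatives and both salts. The call of Thrsp 1371400_at with iodide was also lost without either wild type chloride array, wild type iodide replicate 2 or either L629F iodide array. Both L629F arrays lay above both wild type arrays for 11 of 18 probe sets with chloride and for 11 of 18 with iodide, against 25.2% and 21.1% of all tested. Acsl3 differed by -0.03 ± 0.14 under each salt. The 4 comparisons within a salt or a line share arrays in pairs, so they are not independent of each other.

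**Figure D3:**
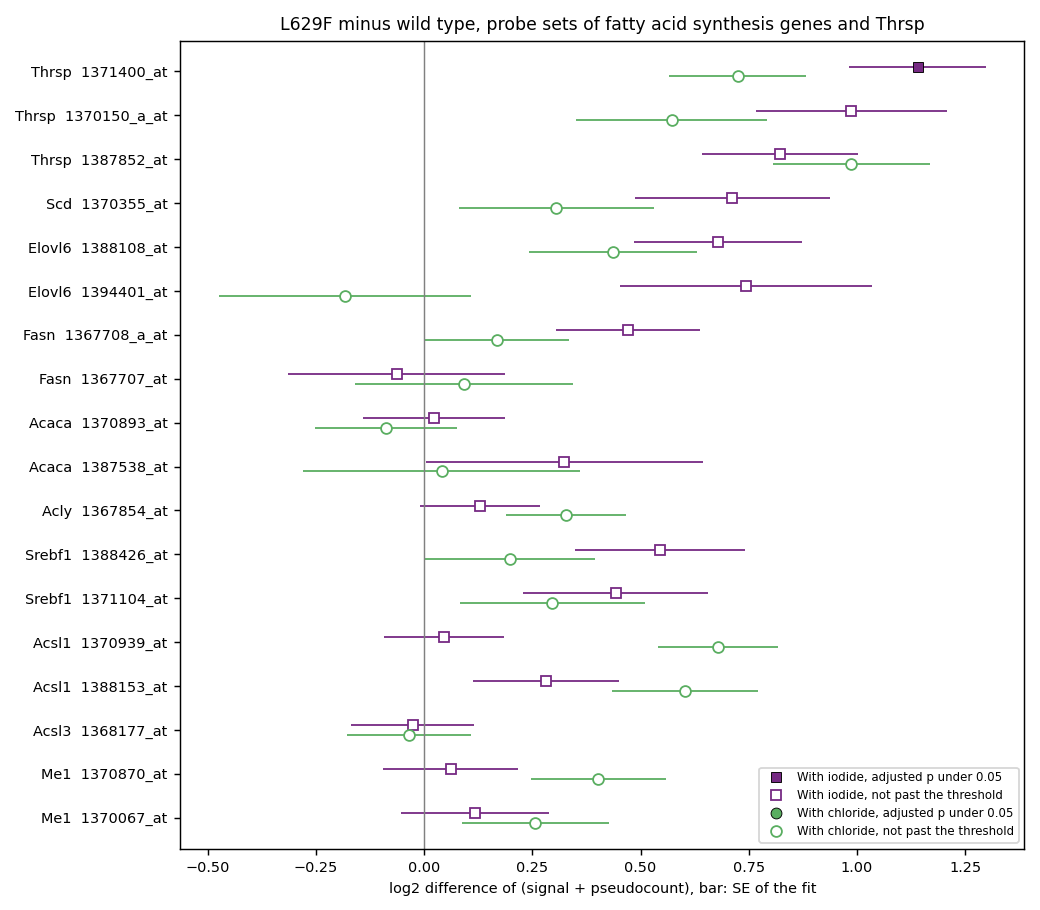
Log2 difference, L629F minus wild type, of the 18 tested probe sets with iodide (squares) and with chloride (circles), with the SE of the fit as bars. The 3 Thrsp probe sets lie between 0.57 and 1.14, and the filled symbol, Thrsp 1371400_at with iodide, is the 1 past the threshold.

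Other genes around the pathway were counted on the same comparison, the mean of both lines, in which 0.644% of all tested probe sets were called lower, 0.204% were called higher and 12.2% had an unadjusted p under 0.05. Of 27 other genes of fatty acid synthesis, elongation and desaturation, 17 were tested with 21 probe sets, and limma called 0 of these, while 9 of 21 had an unadjusted p under 0.05, against 12.2% of all. Their median log2 difference was -0.07, with 13 probe sets negative and 8 positive. The lowest p-values were those of Acss2, a cytosolic acetyl-CoA synthetase (-0.40 ± 0.10, SE, adjusted p = 0.0864), Acsl4 (-0.36 ± 0.10, adjusted p = 0.115) and Fads2, the delta-6 desaturase (-0.41 ± 0.12, adjusted p = 0.134). Of the genes that supply NADPH, 9 of 10 were tested, with 0 called by limma (2 of 9 with an unadjusted p under 0.05, against 12.2% of all) and a median of -0.09. Idh1, cytosolic isocitrate dehydrogenase, gave -0.37 ± 0.11 (adjusted p = 0.132), Pgd, 6-phosphogluconate dehydrogenase, -0.39 ± 0.11 (adjusted p = 0.148) and Idh2 -0.17 ± 0.08 (adjusted p = 0.444).

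Among genes that control lipogenic transcription, 2 of 42 tested probe sets (25 genes) were called lower, against 0.644% of all, and 0 higher, with a median of -0.07. An unadjusted p under 0.05 was found for 7 of 42, against 12.2% of all. Insig1, which holds SREBP in the endoplasmic reticulum, fell by 0.57 ± 0.11 (SE, adjusted p = 0.0292) and passed in 2 of the 8 fits that left out 1 array (highest adjusted p = 0.157). Ppargc1a, a transcriptional coactivator, fell by 0.78 ± 0.17 (adjusted p = 0.0499) on 1 of 3 probe sets and passed in 0 of these fits (highest adjusted p = 0.27). Its other probe sets gave -0.45 ± 0.15 (adjusted p = 0.211) and -0.17 ± 0.18 (0.78). Cebpb gave -0.50 ± 0.19 (0.268), and Usf1 gave -0.47 ± 0.18 (0.277) and -0.20 ± 0.20 (0.764). In glycerolipid assembly and lipid droplets, 1 of 32 probe sets (18 genes) was called lower, against 0.644% of all, and 0 higher, with a median of -0.03. Here 6 of 32 had an unadjusted p under 0.05. The probe set called lower belonged to Lpin1, a phosphatidate phosphatase, with 128 and 159 in L629F cells with iodide against 370 and 567 with chloride. With the wild type receptor it had 231 and 108 with iodide against 374 and 376 with chloride, a mean difference of -1.27 ± 0.22 (adjusted p = 0.0182). Of the fits that left out 1 array, it passed in 4 (highest adjusted p = 0.125), and its second probe set gave -0.45 ± 0.21 (adjusted p = 0.412). Agpat3, an acyltransferase, gave 0.38 ± 0.12 (0.2) and 0.37 ± 0.13 (0.261), and Dgat2, which makes triglyceride, -0.40 ± 0.14 (0.229). Further probe sets gave 0.13 ± 0.11 (0.729) and 0.10 ± 0.19 (0.888) for Agpat3 and -0.14 ± 0.16 (0.788) for Dgat2. In the other comparisons, 0 probe sets of these lists were called.

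**Figure D4:**
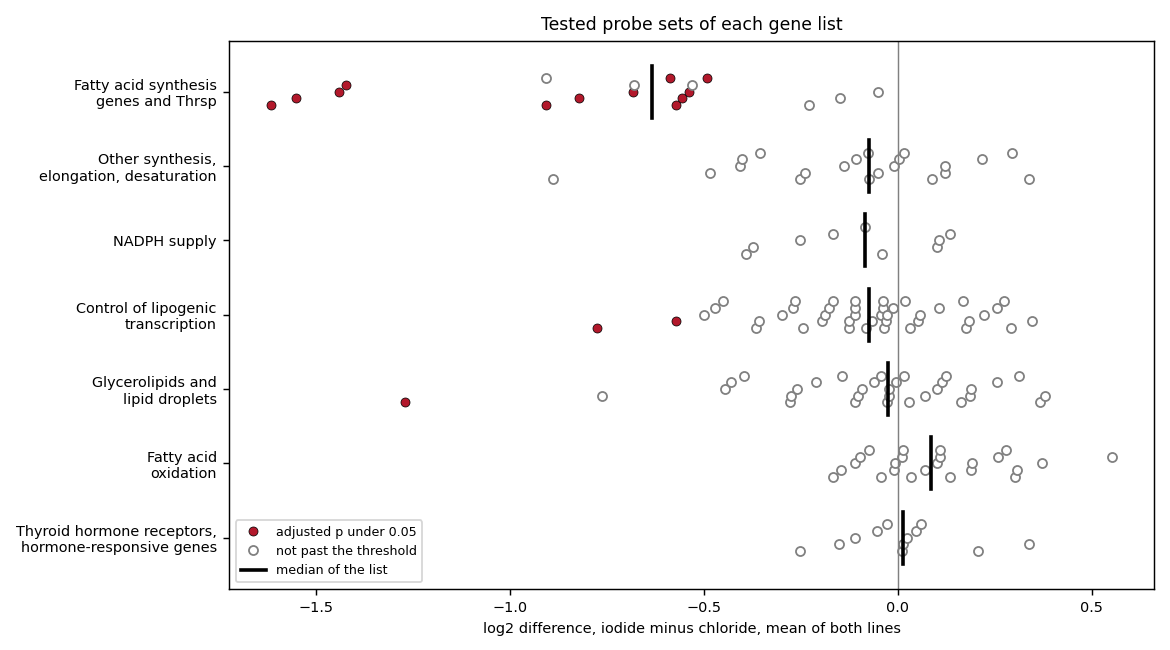
Log2 difference, iodide minus chloride averaged over both lines, of every tested probe set of the 10 genes (top row, 18 points) and of 6 related gene lists, with a bar at each median. The median of the top row is -0.63, and the medians of the other rows lie between -0.09 and 0.09. The genes and lists were chosen with earlier results of these data known.

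The genes whose pattern over the 8 arrays was most like that of Thrsp 1371400_at were found by Pearson's r of log2(signal + 35.3) among tested probe sets with 1 symbol, the 10 genes aside. The 8 points form 4 groups and share arrays, so r is given as a description. The 5 were Abcg1 (r = 0.996), a sterol exporter, Asb9 (0.983), Pyroxd2 (0.982), Smtnl2 (0.981) and Pikfyve (0.977), a lipid kinase. Since they were picked for following Thrsp on these arrays, their differences are given with no test. With iodide the mean log2 difference was -1.14 ± 0.16 for Abcg1 (SE), -0.99 ± 0.13 for Asb9, -0.96 ± 0.12 for Smtnl2, -0.53 ± 0.12 for Pikfyve and -0.37 ± 0.13 for Pyroxd2. Other tested probe sets of these genes were less like Thrsp, with r = -0.20 for Abcg1, -0.19 for Pyroxd2, 0.02 for Pikfyve and 0.62 for Smtnl2. Of the 10 genes themselves, Elovl6 1388108_at (r = 0.976), Fasn 1367708_a_at (0.956), Srebf1 1388426_at (0.948) and Scd (0.929) came closest, and Me1 1370870_at (0.485) was farthest.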

How the data were processed

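Total RNA was labelled with biotin for Affymetrix arrays of 1 colour, per the labels. Each deposited value is the intensity of 1 probe set on 1 array, unlogged. The tool that the submitters' processing notes name is MAS5; its version, its scaling target and the detection calls were not given in the sources used here. The arrays' means without the lowest and highest 2% were all 500.2, so they had been scaled before deposit. Symbols came from the platform annotation, updated by gene ID to GRCr8; 20832 probe sets had 1 symbol, 436 several and 9831 none.

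Left out were 57 control probe sets and, of the rest, the 40% with the lowest mean log2 signal (under 65.4). The remaining 18625, 4704 of them without a single symbol, were fitted as log2(signal + 35.3) by limma 3.58.1 (R 4.3.3). The model had 4 group means and 4 residual degrees of freedom, and eBayes let the prior variance follow the mean signal. The pseudocount was the 25th percentile of all signals, and it understates the change of dim probe sets. Values were not centred. Two-sided p-values were adjusted by Benjamini-Hochberg over the 18625, and the threshold was 0.05. The number of arrays limits the precision (median SE 0.17 for the mean of both lines, 0.24 within a line). Same-numbered arrays of different groups deviated together at r = 0.04 to 0.21. The correlation was positive for every pair of groups and highest between the salts of a line (0.21 wild type, 0.19 L629F). In every group, replicate 2 had the higher GAPDH and beta-actin ratio. Replicate numbers were not taken as pairs in the main fit, and a shared replicate effect was not tested beyond the fit with a replicate block. The fit was also run on simulated data with independent noise and no shared replicate effect. That run therefore cannot show how such an effect would change the calls. Python 3.11.15 with matplotlib 3.10.9 drew the figures, and the R package data.table was version 1.17.8.

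The 10 genes and the lists were chosen with earlier results of these data known. Of them, all probe sets are given, and of each related list those past the threshold and the next 3 by p. Beside these, further probe sets of some named genes and Mid1ip1, the paralog of Thrsp, are given. Alternatives changed the pseudocount, dim filter, scaling, rows, variance moderation, covariates, arrays, replicate term and threshold.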

Additional observations from a re-analysis of the deposited data

How the results depend on the processing

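The 12 probe sets called lower for the mean of both lines numbered 10 with pseudocount 1, quantile scaling or centring on all probe sets, 9 with the brightest probe set per gene, 12 with the GAPDH ratio as a covariate, 13 at a threshold of 0.1 and 15 with the replicate block. The count was 6 with no dim filter, 7 without the 2 arrays of highest GAPDH ratio (chosen after seeing the data), 2 with no intensity trend, and 4 to 11 without 1 array; the cause was not tested. In wild type cells the count of 4 became 0 with no intensity trend, 8 at a threshold of 0.1, 9 with the replicate block and 0 to 5 without 1 array. In L629F cells the count of 2 became 6 with the GAPDH ratio as a covariate, 5 with the replicate block or a threshold of 0.1, and 3 with the lowest 60% left out, quantile scaling or the brightest probe set per gene. It was 1 when centred or when the 2 arrays of highest GAPDH ratio were left out, 0 with no intensity trend or with only the 4 arrays of the comparison, and 0 to 3 without 1 array. For L629F against wild type with chloride, the count of 0 became 1 with pseudocount 100, the lowest 60% left out, quantile scaling or the brightest probe set, and 2 with only 4 arrays, a threshold of 0.1 or without the 2 arrays of highest GAPDH ratio. It was 3 with the replicate block, 4 with the covariate and 0 to 2 without 1 array. With iodide the count of 1 became 3 with the covariate or the replicate block, 0 when centred, with no trend, with only 4 arrays or without the 2 arrays of highest GAPDH ratio, and 0 to 1 without 1 array. The difference in iodide response between the lines (the interaction) had 0 calls in every fit in which it was computed.

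Values that changed sign were not past the threshold in any fit. They are listed for the iodide response of each tested probe set, and for line differences of Thrsp and Acsl1 only. Line differences of other genes also changed sign without 1 array. Among them were Scd (-0.025 to 0.63) and Elovl6 1394401_at (-0.52 to 0.15) with chloride, and Acly (-0.046 to 0.30) with iodide. Without 1 array, Acaca 1387538_at ran from -0.61 to 0.025 in wild type cells, from -0.16 to 0.14 in L629F cells and from -0.31 to 0.0086 for the mean of both lines. In L629F cells it gave 0.011 with quantile scaling, 0.0040 when centred, 0.049 with the covariate and 0.045 when the 2 arrays of highest GAPDH ratio were left out. Me1 1370067_at ran from -0.33 to 0.0068 in wild type cells without 1 array, and Me1 1370870_at gave, for the mean, 0.013 with the covariate and 0.0035 when the 2 arrays of highest GAPDH ratio were left out. Acsl1 1370939_at, L629F against wild type with iodide, ran from -0.049 to 0.14 without 1 array, and gave -0.14 when centred and -0.031 without these 2 arrays.

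Over all tested probe sets, calls for the mean of both lines were 38 higher and 120 lower, and 73 and 96 when centred. L629F against wild type gave 26 higher and 11 lower with chloride (9 and 28 centred, 37 and 9 with quantile scaling) and 29 and 4 with iodide (11 and 11 centred). The 158 calls for the mean were 523 with the replicate block, 56 with no dim filter, 2 with no intensity trend and 26 to 291 without 1 array. In wild type cells the 44 calls were 218 with the replicate block, 94 at a threshold of 0.1 and 0 with no intensity trend. In L629F cells the 3 calls were 28 with the replicate block, 19 with the covariate, 13 at a threshold of 0.1 and 0 with no intensity trend. Replicate numbers were not taken as pairs in the main fit. The replicate block left the median log2 difference of all tested probe sets the same (-0.003 for the mean of both lines). It changed the number of calls, so its higher counts are no sign of larger differences. Signals near the dim limit, as of Acaca 1387538_at, limit what can be seen.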

Other observations

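Genes of fatty acid oxidation gave no call. Of 24 tested probe sets (21 genes), limma called 0 for the mean of both lines, 5 had an unadjusted p under 0.05 (against 12.2% of all tested), and 16 had a positive log2 difference, iodide minus chloride, with a median of 0.09. Acaa2, the mitochondrial thiolase, gave 0.37 ± 0.09 (SE, adjusted p = 0.0727) and 0.55 ± 0.16 (adjusted p = 0.138) on its tested probe sets. Eci1, an enoyl-CoA isomerase, gave 0.30 ± 0.11 (adjusted p = 0.239). On the brighter Acaa2 probe set, signals were 6017 and 6378 in L629F cells with iodide against 5079 and 4717 with chloride. The wild type arrays read 5986 and 5976 with iodide against 4623 and 4392 with chloride.

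Thyroid hormone receptors and hormone-responsive genes, of interest because Thrsp is induced by thyroid hormone in liver, had 12 tested probe sets (6 genes), 0 called by limma for the mean of both lines and 1 with an unadjusted p under 0.05 (against 12.2% of all tested), and a median of 0.01. Med1, a Mediator subunit, gave 0.34 ± 0.12 (SE, adjusted p = 0.261) and 0.21 ± 0.11 (adjusted p = 0.505), and Ncor1, a corepressor, -0.25 ± 0.15 (adjusted p = 0.55). Mid1ip1, the paralog of Thrsp, was counted above with the other genes of fatty acid synthesis. It had 4848 and 5022 in L629F cells with iodide against 5360.1 and 5963 with chloride. In wild type cells it had 3525 and 4170 with iodide against 4593 and 4916 with chloride, a mean difference of -0.25 ± 0.10 (adjusted p = 0.284).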
